A study of Homo sapiens with 9 samples.

Results

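Transcripts of 10 EPH receptor and ephrin genes were followed in PLC/PRF/5, a human hepatoma cell line, in 9 RNA sequencing samples. The genes are the receptors EPHA1, EPHA2, EPHA4, EPHB2 and EPHB4 and the ligands EFNA1, EFNA4, EFNA5, EFNB1 and EFNB2. They were chosen by name, as receptors of which several are targets of the kinase inhibitor dasatinib, with their ligands. Earlier results of these data were known when they were chosen. Each was found once by symbol among 58219 genes counted. All 10 had at least 1 read, and 7 passed the filter on low counts and were among the 14617 genes tested. EPHA1, EPHA4 and EFNB2 did not pass it.

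EPH receptors are receptor tyrosine kinases, and ephrins are ligands that stay bound to the membrane of a neighbouring cell, the A class through a lipid anchor and the B class through a transmembrane segment. Contact between cells sends a forward signal through the receptor and a reverse signal through the ephrin, and both act on cell adhesion, repulsion and the actin cytoskeleton. In epithelial cells EPHA2 signals either when bound by EFNA1 or, without ligand, downstream of growth factor pathways.

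The samples come from stable lines that expressed the Src family kinase YES, encoded by YES1. YES was wild type in 4 samples and carried T348I, a substitution at the gatekeeper of the drug pocket, in 5. Every sample had received dasatinib at 100 nM, so each value below compares T348I with wild type under the drug, and no sample without dasatinib was analysed here. The labels do not say whether a line is 1 clone or a pool. The drug is spelled in full in the titles of 3 wild-type and 3 T348I samples, here the dasatinib set, and as Dasa in those of 1 wild-type and 2 T348I samples, here the Dasa set.

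Samples held 10381142 to 15799059 reads in genes. Transcripts of the mitochondrial genome, its ribosomal RNAs included, took 7.38% to 9.44% of these reads in the dasatinib set and 15.2% to 17.0% in the Dasa set. YES1 stood at 341 to 368 CPM (read counts scaled to a common depth, with TMM) in wild-type samples, 553 to 605 in T348I samples of the dasatinib set, and 974 and 1032 in those of the Dasa set. Hepatocyte and hepatoma markers were abundant, with 370621 reads of APOB and 182370 of FGB, while ALB had 366 reads and TTR 14. Of 9 tested markers of this list 7 were called lower in T348I samples, where 21.8% of all genes tested were called lower. The summed level of the list was 6525 to 9629 CPM in wild-type and 5828 to 7563 CPM in T348I samples. Stromal markers summed to 3.29 to 8.11 CPM in wild-type and 4.39 to 9.54 CPM in T348I samples, with COL1A1 the only 1 of 5 tested, and called higher. Endothelial markers summed to 1.37 to 3.56 and 1.81 to 3.94 CPM, respectively. Leukocyte markers summed to 960 to 1257 CPM in wild-type and 803 to 1405 CPM in T348I samples, of which LYZ, with 135466 reads, made up nearly all, while PTPRC and CD3E had 2 and 5 reads in all. The part of these differences in the results below was not tested, and in bulk RNA fewer cells with a transcript and less transcript per cell cannot be told apart.

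The gatekeeper that T348I changes in YES has a counterpart in EPH receptors, and its codon was read from the coding sequences of GENCODE release 29 on build GRCh38. The windows below show 27 coding bases, 5′ to 3′, around the codon aligned with the codon that T348I changes in YES1, which stands in capitals. They are shown for 4 receptor members, for both EPHA6 and EPHA7, where the codon differs, and for YES1.
EPHA1: atcatgatcatcACAgaatttatggag
EPHA2: atgatgatcatcACTgagtacatggag
EPHA4: gtaatgatcataACAgagtacatggag
EPHB4: gtcatgattctcACAgagttcatggag
EPHA6: gtaatgattgtgGTGgaatatatggag
EPHA7: gtcatgatagtaATAgagttcatggaa
YES1: atttacattgtcACTgaatttatgtca
They lie on GRCh38 at chr7:143395148-143395174 (EPHA1, minus strand, exon 13), chr1:16132405-16132431 (EPHA2, minus strand, exon 12) and chr2:221437088-221437114 (EPHA4, minus strand, exon 13). That of EPHB4 lies at chr7:100812774-100812800 (minus strand, exon 12). The others lie at chr3:97610801-97610827 (EPHA6, plus strand, exon 13), chr6:93257489-93257515 (EPHA7, minus strand, exon 12) and chr18:742922-742948 (YES1, minus strand, exon 8). In YES1 and in the 4 members shown the codon starts with AC, which encodes threonine whatever the base after it. EPHA6 has a valine codon there, and EPHA7 has an isoleucine codon, the residue that T348I puts into YES. These letters describe the reference, and drug binding was not measured.

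Of the 7 tested members, 4 rose in T348I samples and 0 fell, where over all genes tested 20.7% were called higher and 21.8% lower (edgeR quasi-likelihood test, adjusted p under 0.05). The 4 were the receptors EPHA2 and EPHB2 and the A-class ligands EFNA5 and EFNA1. For 3 of the 7 (EPHA2, EPHB2 and EFNA5) every T348I sample lay above every wild-type sample, which held for 10.2% of all genes tested. The median log2 fold change of the 7 was 0.33, and that of all genes tested was -0.0077. The share called also reads against the whole family, described further on, where as many genes fell as rose. The members were chosen with earlier results of these data known, so their share is a description and no test. The labels name no separate cultures behind the samples of a group, and the p-values cover only the spread among samples, which may be technical.

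**Figure D1:**
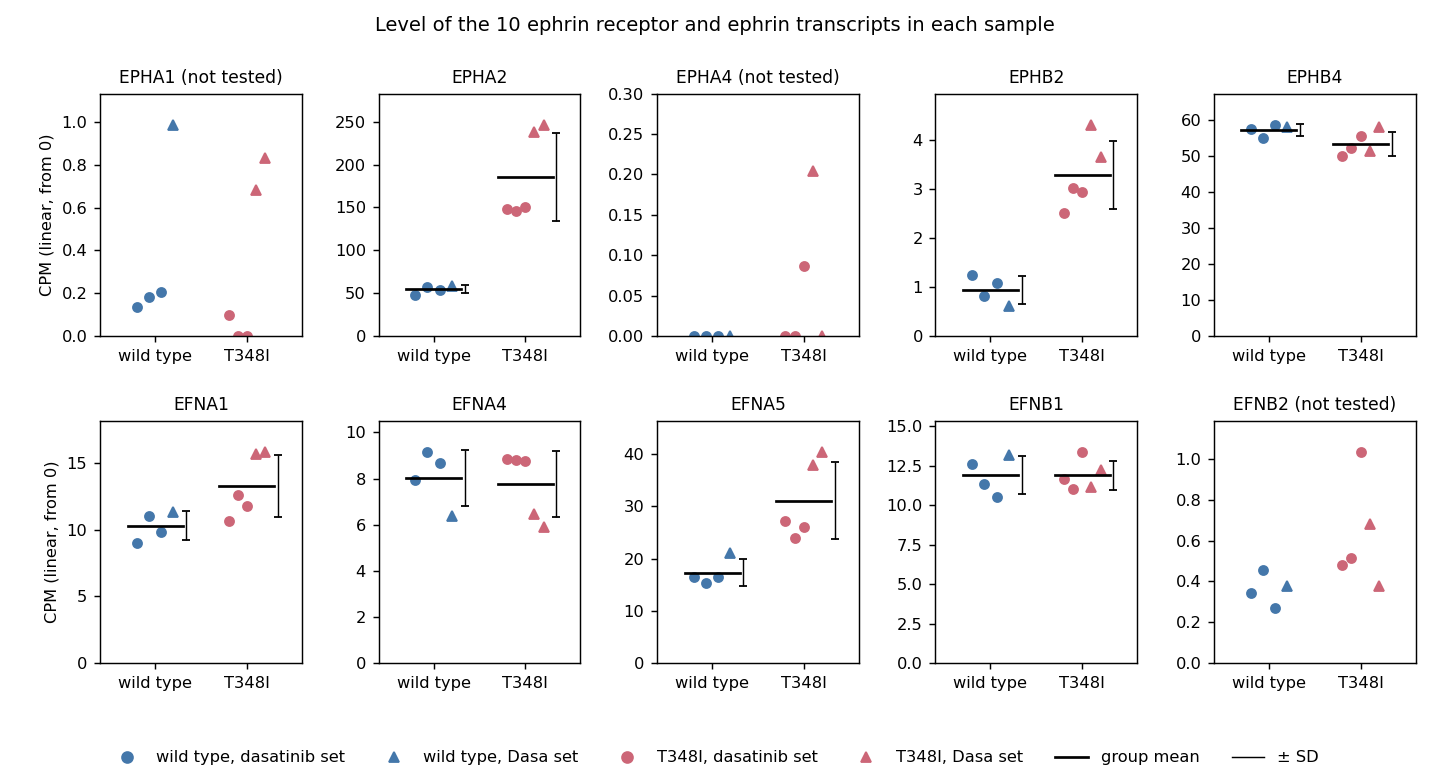
Level of each of the 10 transcripts in CPM (linear axes from 0) in 4 wild-type and 5 T348I samples, with circles for the dasatinib set and triangles for the Dasa set, and the group mean ± SD where the gene was tested. EPHA2, EPHB2 and EFNA5 show no overlap of the groups, and in EPHA2 the Dasa T348I samples (237.8 and 246 CPM) lie above the dasatinib ones (146 to 150.2 CPM).

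EPHA2, a receptor abundant in many carcinomas, was the receptor member with the highest level and rose about 3-fold. The gene lies on the minus strand of chromosome 1 (chr1:16124337-16156087). Wild-type samples held 47.7, 57.7 and 54.1 CPM in the dasatinib set and 58.1 CPM in the Dasa set. T348I samples held 148, 146 and 150.2 CPM in the dasatinib set, with 237.8 and 246 CPM for the Dasa set. All T348I samples were above all wild-type samples, and the lowest T348I sample was more than double the highest wild-type sample.

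From a wild-type mean of 54.4 ± 4.81 CPM (n = 4, SD), EPHA2 rose to 186 ± 51.5 CPM (n = 5, SD). The log2 fold change was 1.66 (SE 0.0772, 95% interval 1.5 to 1.82), or 3.16-fold (edgeR adjusted p = 1.78e-12). That fit takes 1 fold for both sets, and the log2 folds within the sets, 1.48 (dasatinib) and 2.06 (Dasa), lie outside its interval. The fold was larger in the Dasa set than in the dasatinib set, 4.16-fold against 2.80-fold. That difference of 0.57 on the log2 scale (SE 0.0887) passed the edgeR interaction test (adjusted p = 2.24e-05). The test called 7.33% of all genes, and EPHA2 was the only 1 of the 7 tested members it called. In the Dasa set it rests on 1 wild-type sample, whose spread is borrowed from the other samples. YES1 moved the same way between the sets, with a log2 fold of 0.73 in the dasatinib set and 1.45 in the Dasa set. The level of YES1 and the presence of T348I cannot be told apart in this design, nor can introduced and endogenous YES1 reads in a count per gene.

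The stretch before the EPHA2 start is shown because EPHA2 was the only member whose promoter held a searched motif. The 150 bases before the start, from RefSeq on GRCh38.p14, lie at chr1:16156070-16156219 and are written 5′ to 3′ on the minus strand, the strand of the gene; the GENCODE start lies inside their last bases.
EPHA2 promoter: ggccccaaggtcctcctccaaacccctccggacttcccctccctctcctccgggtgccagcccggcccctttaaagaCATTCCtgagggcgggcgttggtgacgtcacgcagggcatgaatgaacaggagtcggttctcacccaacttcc
The capitals mark a match to GGAATG, a core motif of TEAD factors, read on the other strand, with its first base at -73 from the start. Promoters of 300 bases, 250 before and 50 after the start, were searched on both strands for GGAATG, for TGANTCA (AP-1) and for CCGGAAGT (ETS). Of 35116 such promoters 14.03% held GGAATG, 7.71% held TGANTCA and 4.14% held CCGGAAGT. A match is a string of letters, and no binding was measured here.

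EPHB2, a receptor that binds B-class ephrins and is known from the positioning of cells in the intestinal crypt, rose by a similar factor from a level near the limit of detection. The gene lies on the plus strand of chromosome 1 (chr1:22710839-22921500). Wild-type samples held 1.23, 0.822 and 1.08 CPM in the dasatinib set and 0.606 CPM in the Dasa set, from 8 to 18 reads each. T348I samples held 2.503, 3.02 and 2.93 CPM in the dasatinib set, with 4.29 and 3.64 CPM for the Dasa set, from 26 to 63 reads each. The groups did not overlap, and the Dasa set held both the lowest wild-type sample and the highest T348I samples.

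The mean of EPHB2 was 0.936 ± 0.277 CPM (n = 4, SD) in wild-type and 3.28 ± 0.698 CPM (n = 5, SD) in T348I samples. Its log2 fold change was 1.74 (SE 0.228, 95% interval 1.26 to 2.21), or 3.33-fold (edgeR adjusted p = 4.86e-06). The interval is wider than that of EPHA2, and only 269 reads lie behind the gene in all 9 samples. Its log2 folds of 1.41 in the dasatinib set and 2.69 in the Dasa set differed by 1.29 (SE 0.542), which did not pass the edgeR interaction test (adjusted p = 0.159).

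EPHB4, the receptor of EFNB2 in the separation of arteries and veins, differed little between the groups. The gene lies on the minus strand of chromosome 7 (chr7:100802565-100827521). Wild-type samples held 57.4, 54.9 and 58.5 CPM in the dasatinib set and 57.9 CPM in the Dasa set. T348I samples held 49.96, 52.0 and 55.5 CPM in the dasatinib set, with 51.2 and 57.9 CPM for the Dasa set. The groups overlapped, with 3 T348I samples below every wild-type sample.

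The log2 fold change of EPHB4 was -0.11 (SE 0.0482, edgeR adjusted p = 0.0762), and its 95% interval ran from -0.21 to -0.0082. The gene is well counted, with 519 to 864 reads per sample, so a change of the size seen in EPHA2 lies far outside this interval. EPHB4 did pass the threshold, as lower, in 4 alternatives: upper quartile scaling (-0.12), the replicate block (-0.13), without T348I dasatinib replicate 3 (-0.13) and without T348I Dasa replicate 2 (-0.13).

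EPHA1 and EPHA4 were close to undetected. EPHA1, the founding receptor of the family, on the minus strand of chromosome 7 (chr7:143390289-143408892), had 42 sense reads in all. Wild-type samples held 0.137, 0.183 and 0.203 CPM in the dasatinib set and 0.985 CPM in the Dasa set. T348I samples held 0.0963, 0 and 0 CPM in the dasatinib set, with 0.681 and 0.833 CPM for the Dasa set. The groups overlapped over all samples and the Dasa samples were the highest of both groups, while within each set the wild-type samples lay above the T348I samples. The ratio of pooled CPM over both sets, T348I over wild type, was 0.899 (95% interval of the counts 0.468 to 1.74). With the set term and no filter on low counts the log2 fold was -0.75 (edgeR adjusted p = 0.39).

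Opposite-strand reads outnumbered the sense reads of EPHA1, with 2605 in the 9 samples, where the sense reads of EPHA2 and EPHB4 came with 1.33% as many on the other strand. The exons of EPHA1 share 82 bases with ZYX, a gene of the opposite strand that encodes the focal adhesion protein zyxin and had 20903 reads. EPHA4, a receptor for both ephrin classes (chr2:221418027-221574202, minus strand), was without a read in all 4 wild-type samples and had 4 reads in T348I samples, 1 in dasatinib replicate 3 and 3 in Dasa replicate 1. With 0 wild-type reads a level of up to 0.0561 CPM (3 reads over the group, counting error only) cannot be told from absence. No fold is given, since both groups are that close to the floor.

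Among the ligands, EFNA5 rose most. It encodes a lipid-anchored ephrin known as a guidance cue for axons and lies on the minus strand of chromosome 5 (chr5:107376889-107670895). Wild-type samples held 16.5, 15.3 and 16.4 CPM in the dasatinib set and 21.1 CPM in the Dasa set. T348I samples held 27.2, 24.0 and 26.1 CPM in the dasatinib set, with 37.9 and 40.4 CPM for the Dasa set. The groups did not overlap, and within each group the Dasa samples were the highest.

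The mean of EFNA5 went from 17.3 ± 2.57 CPM (n = 4, SD) to 31.1 ± 7.45 CPM (n = 5, SD). The log2 fold change was 0.75 (SE 0.066, 95% interval 0.61 to 0.89), or 1.68-fold (edgeR adjusted p = 2.6e-08). Its log2 folds in the sets, 0.67 and 0.89, had a difference that did not pass the edgeR interaction test (adjusted p = 0.348).

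EFNA1, which binds EPHA2 and was first known as a gene induced by tumour necrosis factor, rose by a smaller amount. The gene lies on the plus strand of chromosome 1 (chr1:155127460-155134857). Wild-type samples held 9.03, 11.1 and 9.81 CPM in the dasatinib set and 11.4 CPM in the Dasa set. T348I samples held 10.7, 12.6 and 11.8 CPM in the dasatinib set, with 15.7 and 15.8 CPM for the Dasa set. The groups overlapped over all samples, with T348I dasatinib replicate 1 below the highest wild-type samples.

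The mean of EFNA1 was 10.3 ± 1.09 CPM (n = 4, SD) in wild-type and 13.3 ± 2.32 CPM (n = 5, SD) in T348I samples, with a log2 fold change of 0.33 (SE 0.0881, edgeR adjusted p = 0.00559). The call was lost without the set term (0.37, edgeR adjusted p = 0.0951), a fit that called 16.1% of all genes against 42.5% with the term. It was also lost in the dasatinib set alone (0.26, edgeR adjusted p = 0.0531), where 35.6% of genes were called.

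EFNA4, a lipid-anchored ephrin encoded next to EFNA3 and EFNA1 on chromosome 1 (chr1:155063731-155069553, plus strand), did not differ by more than the spread. Wild-type samples held 7.94, 9.14 and 8.66 CPM in the dasatinib set and 6.37 CPM in the Dasa set. T348I samples held 8.86, 8.80 and 8.78 CPM in the dasatinib set, with 6.47 and 5.91 CPM for the Dasa set. The groups overlapped and the Dasa samples were the lowest of both groups.

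The log2 fold change of EFNA4 between groups was 0.02 (SE 0.0956, 95% interval -0.18 to 0.22, edgeR adjusted p = 0.872), and its folds in the sets differed by -0.08. EFNA4 shares 14.96% of its exon bases with the annotated readthrough gene EFNA4-EFNA3, and reads there count for neither gene.

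EFNB1, a transmembrane ephrin on chromosome X (chrX:68828997-68842147, plus strand), did not pass the test. Wild-type samples held 12.6, 11.3 and 10.5 CPM in the dasatinib set and 13.2 CPM in the Dasa set. T348I samples held 11.6, 11.05 and 13.3 CPM in the dasatinib set, with 11.2 and 12.2 CPM for the Dasa set. The groups covered nearly the same range, and the log2 fold change was -0.02 (SE 0.0906, 95% interval -0.21 to 0.17, edgeR adjusted p = 0.891).

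EFNB2, the partner of EPHB4, was near the limit of detection. It had 4 or 5 reads in each wild-type sample (0.271 to 0.457 CPM) and 5 to 12 reads in each T348I sample (0.379 to 1.03 CPM). The groups overlapped, and the ratio of pooled CPM was 1.72 (95% interval of the counts 0.974 to 3.15). With no filter on low counts its log2 fold was 0.79 (edgeR adjusted p = 0.211).

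Levels were compared between genes per length, as RPKM (CPM per kilobase of exon). Over the 9 samples the mean was 30.6 RPKM for EPHA2, 8.55 for EPHB4, 6.24 for EFNA4, 4.72 for EFNA1, 4.38 for EFNA5 and 3.59 for EFNB1. It was 0.179 RPKM for EPHB2, 0.10 for EFNB2, 0.0732 for EPHA1 and 0.0043 for EPHA4. EPHA2 lay above EPHB4, EPHB4 above EFNA4, and EFNB1 above EPHB2 in all 9 samples. The ligand ranks were closer: EFNA4 was above EFNA1 in 7 samples and EFNA1 above EFNA5 in 6. The latter order held in all 4 wild-type samples but in 2 of the 5 T348I samples, where EFNA5 had the higher mean (5.46 against 5.24 RPKM). EFNA5 lay above EFNB1 in all 5 T348I samples and in 0 of the 4 wild-type samples. EPHB2 lay above EFNB2 in 7 samples, all 5 T348I samples and 2 of the 4 wild-type samples. With 6 samples in order, EFNB2 over EPHA1 is not separated by the spread. With the length of the longest transcript in place of all exons, EFNB2 and EPHA1 changed places and EFNA1 lay above EFNA5 in all 9 samples.

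The receptor pool of the cells, the summed RPKM of all 14 EPH genes, was larger in every T348I sample than in any wild-type sample, and EPHA2 was the largest segment in all 9. It summed to 23.7 to 26.9 RPKM in wild-type samples, 45.8 to 47.2 in T348I samples of the dasatinib set, and 67.6 and 70.7 in those of the Dasa set. EPHA2 held 48.3% to 54.0% of the pool in wild-type samples and 76.5% to 84.5% in T348I samples. EPHB4 held 33.2% to 37.6% and 11.8% to 18.3%, although its own level moved little. The pool of the 8 ephrins shifted less, from 20.1 to 21.8 RPKM in wild-type to 22.7 to 24.3 RPKM in T348I samples. In it EFNA5 held 12.3% to 18.4% of the pool in wild-type and 18.6% to 29.2% in T348I samples, while EFNA4 held 25.1% to 33.4% and 19.3% to 30.7%. These sums describe the samples and carry no test.

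**Figure D2:**
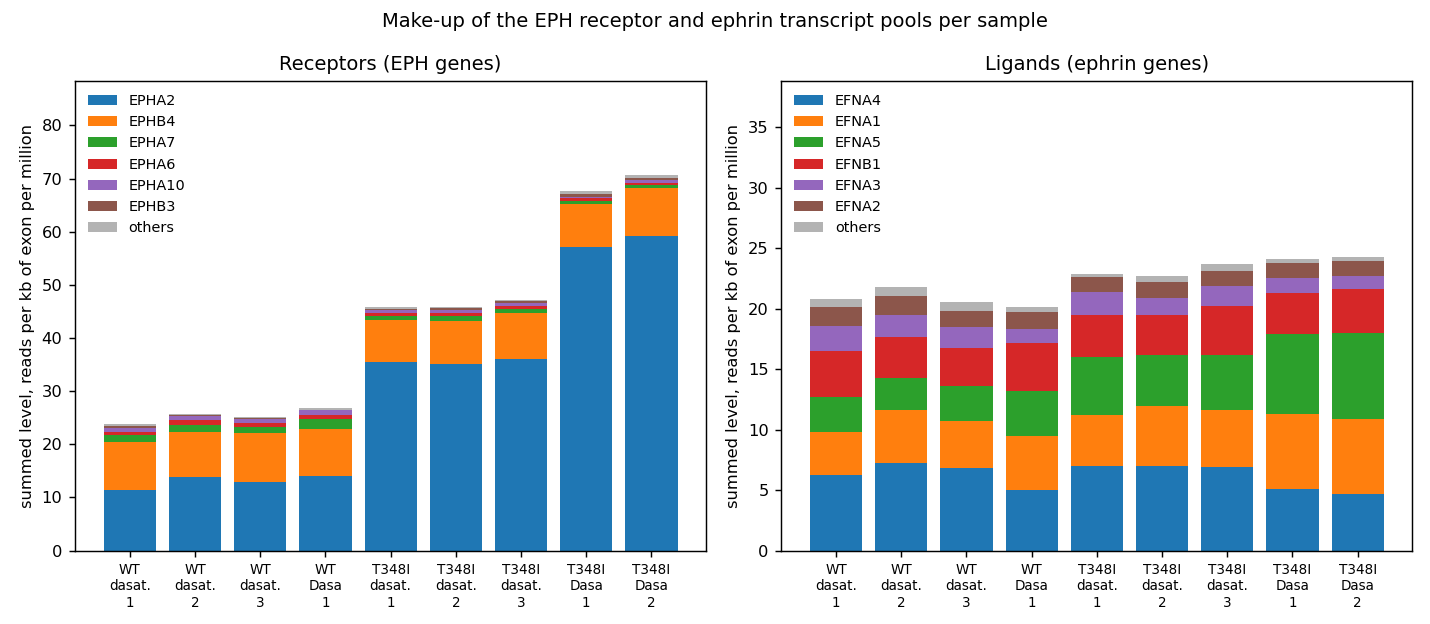
Summed level per length (RPKM, stacked bars from 0) of the EPH receptor genes on the left and the ephrin genes on the right, 1 bar per sample, colours by gene. The receptor bars of T348I samples (45.8 to 70.7 RPKM) are taller than those of wild type (23.7 to 26.9 RPKM) by the EPHA2 segment, while the ligand bars lie between 20.1 and 24.3 RPKM.

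Among the other 12 genes of the family every call was a fall. Of the 7 that were tested, 0 rose and 4 fell, where 20.7% of all genes tested were called higher and 21.8% lower, and their median log2 fold change was -0.40. The whole family of 22 genes, 14 of them tested, had 4 higher and 4 lower and a median of -0.06. EPHA7, EPHA10, EPHA6 and EFNA2 lay lower in every T348I sample than in any wild-type sample, which held for 9.41% of all genes. The counts depend on which genes are taken as members, and no part of them is a test of the family.

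EPHA7, a receptor studied in cortical development, stood at 9.92, 8.95 and 9.34 CPM in wild-type samples of the dasatinib set and 13.7 CPM in that of the Dasa set. It stood at 6.45, 6.36 and 4.74 CPM in T348I samples of the dasatinib set, with 4.97 and 4.54 CPM in those of the Dasa set. Wild-type samples were higher without overlap, and the log2 fold change was -0.98 (SE 0.139, edgeR adjusted p = 1.31e-05). The fall was larger in the Dasa set (-1.52) than in the dasatinib set (-0.68), and the difference of -0.84 passed the edgeR interaction test (adjusted p = 0.0109), though not with DESeq2 (adjusted p = 0.111) or without T348I Dasa replicate 2 (-0.78, edgeR adjusted p = 0.0574).

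EPHA10, a receptor without a working kinase, fell by 0.71 on the log2 scale (edgeR adjusted p = 0.000734), from 6.41 ± 0.623 CPM (n = 4, SD) to 3.91 ± 0.859 CPM (n = 5, SD), and by 0.46 without wild-type Dasa replicate 1. EFNB3, a transmembrane ephrin, fell by 0.85 (edgeR adjusted p = 0.0105), from 1.75 ± 0.57 to 0.863 ± 0.33 CPM, with overlap of the groups. EPHA6 fell by 0.40 (edgeR adjusted p = 0.0463), a call lost in 11 of 17 alternatives, with a log2 fold of -0.27 when wild-type dasatinib replicate 2 was left out.

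EPHB3 had a log2 fold of 0.59 (edgeR adjusted p = 0.103), or 0.27 without wild-type Dasa replicate 1, from 188 reads in all. It was called higher without wild-type dasatinib replicate 1 (0.84, edgeR adjusted p = 0.0353) or T348I dasatinib replicate 1 (0.77, edgeR adjusted p = 0.0289). EFNA2 (-0.23, edgeR adjusted p = 0.458) and EFNA3 (-0.13, edgeR adjusted p = 0.525) were not called, and the latter shares 44.7% of its exon bases with the readthrough gene. EPHA5 and EPHB6 had 21 and 26 reads and were not tested, and EPHA3, EPHA8 and EPHB1 had 5, 1 and 1.

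**Figure D3:**
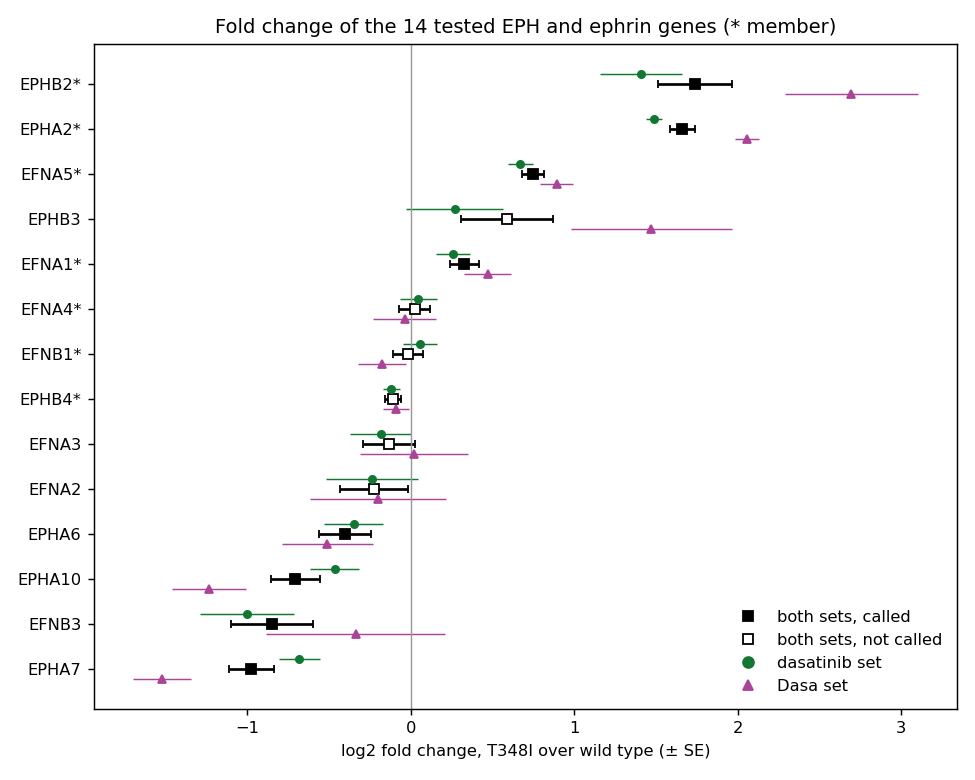
Log2 fold change, T348I over wild type, ± SE for the 14 tested EPH and ephrin genes (squares, filled where called; * marks members), with the fold in the dasatinib set (circles) and the Dasa set (triangles). EPHB2, EPHA2, EFNA5 and EFNA1 lie above 0 with filled squares and EPHA6, EPHA10, EFNB3 and EPHA7 below, and the Dasa value of EPHA2 (2.06) lies to the right of its dasatinib value (1.48).

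The sets themselves differed in many genes, members among them. With group in the model, 4 of the 7 tested members (EPHA2, EFNA1, EFNA4 and EFNA5) differed between the Dasa and dasatinib sets, where 58.6% of all genes tested did (edgeR, adjusted p under 0.05). EPHA2 and EFNA5 were higher in the Dasa set by 0.54 each on the log2 scale, and EFNA4 was lower, at -0.48. That fit takes 1 set difference for both groups, and for EPHA2 the groups differed in it. In wild-type samples EPHA2 had a mean of 53.1 CPM in the dasatinib set and 58.1 CPM in the 1 Dasa sample. In T348I samples the means were 148 CPM (dasatinib) and 242 CPM (Dasa). The titles are the only label that separates the sets, and what the spelling stands for is not given in the sources used here.

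Genes that carry EPH and ephrin signals were read from 6 lists of 66 genes outside the family, and moved in both directions. Of 61 tested, 16 rose and 13 fell, 47.5% against 42.5% of all genes tested, and their median log2 fold change was 0.0024. The lists hold YES1 itself, which was introduced into the cells. Of the 3 tested genes with the smallest p in a list, those reported here are named, and 5 of the lists are described.

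Of 20 tested adaptors and exchange factors of forward signalling, 5 rose and 4 fell, with a median of 0.01. SHC1, an adaptor that links receptor kinases to RAS, rose by 0.69 (SE 0.048, edgeR adjusted p = 7.59e-10), from 255 ± 20.6 CPM (n = 4, SD) to 435 ± 87.9 CPM (n = 5, SD). CRKL, an adaptor of focal adhesions, rose by 0.33 and GRB2, an adaptor that binds the RAS exchange factor SOS, fell by 0.31.

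Of 11 cytoplasmic kinases, 3 rose and 3 fell, with a median of -0.03, and without wild-type Dasa replicate 1 the calls were 2 higher and 1 lower. Besides YES1 (0.94), ABL2, a kinase of the actin cytoskeleton, rose by 0.40, and SRC fell by 0.31. SRC was not called without the set term. Of 7 tested phosphatases and ubiquitin ligases, 3 rose and 0 fell, with a median of 0.10. Over all genes tested 20.7% were called higher and 21.8% lower. The receptor phosphatase gene PTPRF rose by 0.51, the ubiquitin ligase gene CBL by 0.28, and PTPN1 by 0.24 (0.15 when wild-type Dasa replicate 1 was left out).

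Of 6 tested genes of ephrin reverse signalling, 1 rose and 3 fell, with a median of -0.09. The 4 calls dropped to 1 or 2 when any 1 sample was left out except wild-type dasatinib replicate 2 or T348I Dasa replicate 2. RGS3, whose product binds B-class ephrins and dampens G protein signals, rose by 1.88 (SE 0.186), from 1.18 ± 0.353 CPM (n = 4, SD) to 4.75 ± 1.40 CPM (n = 5, SD). The falls of DVL2 (-0.15, edgeR adjusted p = 0.0309) and PICK1 (-0.17, edgeR adjusted p = 0.044) were small and were lost in 8 and 12 of 17 alternatives. Of 7 tested proteases that cut EPH receptors or ephrins, 1 rose and 2 fell, with a median of -0.01. The membrane metalloprotease gene MMP14 rose by 0.27, and the gamma-secretase gene NCSTN fell by 0.11, a call lost in 6 of 17 alternatives.

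**Figure D4:**
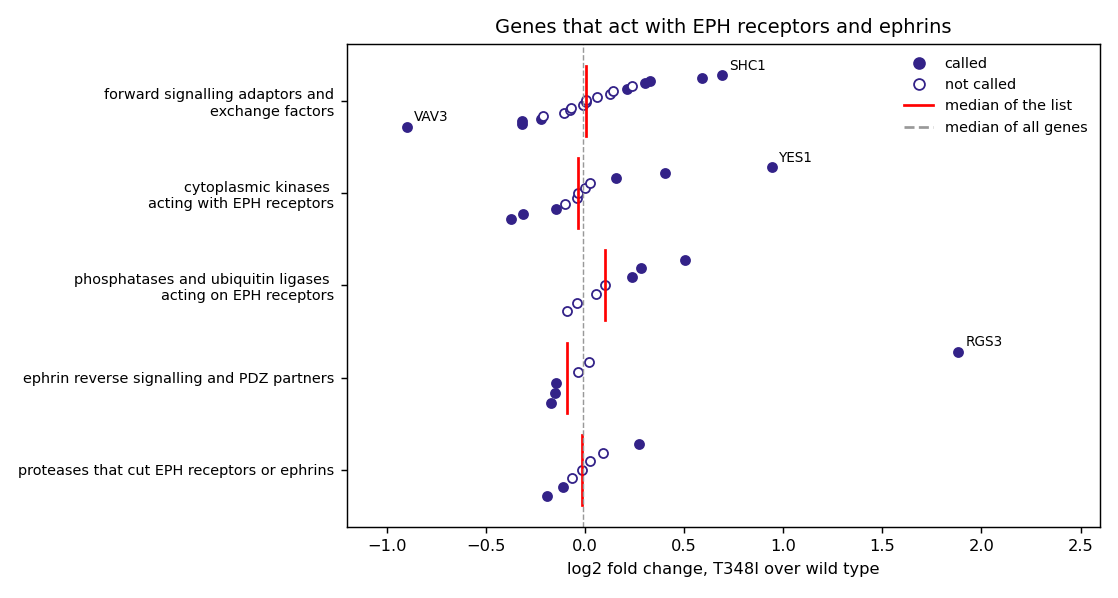
Log2 fold change, T348I over wild type, of each tested gene in 5 lists of genes that act with EPH receptors and ephrins (filled where called), with the median of each list and of all genes tested. The list medians lie between -0.09 and 0.10, with RGS3 (1.88) farthest to the right and VAV3 (-0.90), an exchange factor labelled after its value was seen, farthest to the left.

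Genes with the pattern most like a member were sought by Pearson's r of log2 CPM less the set mean over the 9 samples, among 12458 genes. For EPHA2 they were SEPTIN10, a septin gene (r = 0.999, log2 fold 0.56), and CXCL2, a neutrophil chemokine gene (r = 0.999, log2 fold 1.04). For EPHB2 they were TMEM41B (r = 0.997, log2 fold 0.48), a gene of an endoplasmic reticulum membrane protein, and EHD1, of endocytic recycling (r = 0.995, log2 fold 0.74). For EFNA5 they were the thrombin receptor gene F2R (r = 0.999, log2 fold 1.99) and the granzyme inhibitor gene SERPINB9 (r = 0.997, log2 fold 1.05). The samples share the difference between groups, so these r carry that difference too. For EFNB1, which did not differ between the groups beyond their spread, the closest genes were MINDY3 (r = 0.957, log2 fold -0.01) and MADD (r = 0.919, log2 fold -0.0037).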

How the data were processed

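Polyadenylated RNA of 9 samples was sequenced with a stranded kit, per the labels' protocols. The deposited values are raw counts of reads per gene. The submitters' processing notes name STAR 2.5.1b, Trimmomatic 0.35, CASAVA 1.8.2 and build GRCh38. Which annotation release the authors counted on is not given in the sources used here. Sense-strand counts were used. Reads assigned to no gene, 22.2% to 29.8% of each file, were left out.

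The test was run with edgeR 4.0.16 under R 4.3.3 (filterByExpr, TMM, quasi-likelihood F-test with set and group, Benjamini-Hochberg adjustment over 14617 genes, threshold 0.05). A second model added their interaction. Standard errors come from the fold and the F statistic. Counting intervals are exact at 95% and cover counting error only. RPKM used GENCODE release 29 exons, which held 57881 of 58219 identifiers, 55008 with the same version. Coordinates are given only for those. The method was tested on simulated data. Samples of 1 group and set differed by more than sampling noise (chi-square of 1.44 to 2.88 per gene), so none of those compared was a copy of another. Samples of different sets were not compared, which leaves out the wild-type Dasa sample. Repeat libraries of the same RNA are not excluded by this.

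In the dasatinib set replicate numbers showed no sign of pairing: same-numbered deviations correlated at -0.0077, -0.0763 and 0.0033. The Dasa set, with 1 wild-type sample, could not be checked this way. Receptor codons were found by local alignment of translated GENCODE coding sequences with YES1, a step for which a global alignment of proteins had been planned. RefSeq promoters were matched by symbol.

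Named genes are the members, every other EPH or ephrin gene (those under 10 reads as counts only), the 3 tested genes of smallest p in each list, and for 1 member of each class the 2 genes most alike. Some items that this rule takes are not reported here. Members and lists were chosen with earlier results of these data known. Alternatives were DESeq2 1.42.0, other scaling, no filter, no set term, the replicate block, the dasatinib set alone, counts without strand and leaving out each sample. The interaction was not refitted without the wild-type Dasa sample.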

Additional observations from a re-analysis of the deposited data

Results flagged for a closer look

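The lowest and highest samples of 36 groups (the EPH and ephrin genes in wild-type and in T348I samples) were compared with the rest of their group, and 2 samples stood apart, where chance marks about 1 in 20 groups. EPHA1 was at 0.985 CPM in wild-type Dasa replicate 1, from 13 reads, and 0.137 to 0.203 CPM in the other wild-type samples. That sample is the only wild-type one of the Dasa set. In T348I samples EPHA1 was likewise higher in the Dasa set (0.681 and 0.833 CPM) than in the dasatinib set (0 to 0.0963 CPM). EPHA5 was at 0.77 CPM in T348I dasatinib replicate 1, from 8 reads, and 0.0681 to 0.128 CPM in the other T348I samples.

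The log2 fold of T348I over wild type differed between the Dasa and dasatinib sets for 10 of the genes that the naming rule takes (edgeR interaction test, which called 7.33% of all genes tested). The rule picks some genes by small p or by likeness to a member in these same data, so the 10 do not compare with that share. The difference, Dasa less dasatinib, was 0.57 for EPHA2 (adjusted p = 2.24e-05) and -0.84 for EPHA7 (adjusted p = 0.0109). It was 0.71 for YES1, 0.38 for PTPRF, 0.30 for SHC1, 0.30 for PTPN1 and 0.25 for the cofilin gene CFL1. The call of PTPN1 was lost in 4 of 13 alternatives, with a difference of 0.21 without T348I Dasa replicate 2. Among genes alike in pattern it was 0.44 for EHD1, 0.44 for SERPINB9 and 0.36 for TMEM41B. The share of mitochondrial reads was higher in the Dasa set in both groups. The level of YES1 moved with the set in T348I samples, while wild-type samples of both sets lay within 341 to 368 CPM. The part of either in these differences was not tested.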

How the results depend on the processing

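The number of members called was 4 and lay between 3 and 5 over 17 alternatives, all of them with EPHA2, EPHB2 and EFNA5 called higher. It was 3 without the set term and in the dasatinib set alone, where EFNA1 was lost, and 4 to 5 when each sample was left out in turn. It was 5 with the replicate block and with upper quartile scaling, where EPHB4 was called lower. Replicate numbers showed no sign of pairing in the dasatinib set, and T348I Dasa replicate 2 has no partner in the replicate block. The log2 fold ranged from 1.49 to 1.77 for EPHA2, 1.41 to 1.93 for EPHB2, 0.67 to 0.85 for EFNA5 and 0.26 to 0.38 for EFNA1. EPHA2 was the 1 member whose fold differed between the sets under all 13 alternatives. None of these left out wild-type Dasa replicate 1, without which the Dasa set holds no wild-type sample. No called result changed direction, while EFNA4 ranged from -0.05 to 0.05 and EFNB1 from -0.08 to 0.06, and MADD was at 0.00047 with DESeq2. Among log2 folds recomputed, 42 lost and 6 gained a call, and 632 kept their side of the threshold. The cause was not tested. Without the set term 2350 genes were called in place of 6212, and the genes called fell from 4 to 2 among the other EPH and ephrin genes, 9 to 5 among forward signalling genes and 6 to 2 among cytoplasmic kinases, which fell to 3 without wild-type Dasa replicate 1, with the replicate block and in the dasatinib set alone. Reverse signalling genes fell from 4 to 1 or 2 under several alternatives. EFNB3 was not called without the set term (-0.99, edgeR adjusted p = 0.0702). Other scalings moved the median log2 fold of all genes by 0.0041 or less, or by -0.0124 with upper quartile scaling. Depth limits EPHA1, EPHA4, EFNB2 and EPHB2, and cannot show small changes there.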
